A study of Arabidopsis thaliana with 60 samples.

Results

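The 26S proteasome of Arabidopsis thaliana was described here through 37 genes for its subunits. They were taken from a fixed list of gene identifiers, which was chosen with earlier results of these data known. All 37 were present among the 32678 genes of the count tables and passed the filter on low counts in every fit. The list holds 14 genes for the core particle (7 for the alpha ring, PAA1 to PAG1, and 7 for the beta ring, PBA1 to PBG1), 10 genes for the ATPases of the regulatory particle (RPT) and 13 genes for its other subunits (RPN). RNA was sequenced from leaves of 4 lines, each sampled at 0, 2, 4, 6 and 8 h after leaves of 4-week-old plants had been infiltrated by syringe with 1 µM dexamethasone, with 3 replicates per group (60 libraries in 20 groups). In the wild-type (Col-0) background, DEXp:MLACC-mYFP plants (the MLACC line) expressed the MLACC fragment of a barley immune receptor fused to a yellow fluorescent protein from a dexamethasone-inducible promoter, and DEXp:mYFP plants expressing the fluorescent protein alone (the mYFP line) served as the control. In the second background the mutant ppsdes in Col-0, which combines pen2-1, pad4-1 and sag101-2 with the alleles dde2-2, ein2-1 and sid2-2 and lacks much of the jasmonate, ethylene and salicylic acid branches of defence, either carried DEXp:MLACC-mYFP or carried no transgene, so that the ppsdes control lacked the fluorescent protein that the wild-type control expressed. All 4 lines received dexamethasone, including at 0 h, and each replicate pooled leaf discs from 6 plants. Each transgenic group was a single selected line, so that an effect of MLACC and an effect of the line cannot be told apart.

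The proteasome degrades proteins that carry chains of ubiquitin. The alpha rings gate the core particle and the beta rings carry its proteolytic sites, on PBA1 (caspase-like), PBB1 (trypsin-like) and PBE1 (chymotrypsin-like). The ATPase ring of the regulatory particle unfolds substrates and feeds them into the core, while the RPN subunits form the scaffold, bind ubiquitin (RPN10) and cut it off (RPN11). Many Arabidopsis subunits are encoded by a pair of genes. When proteasome activity falls, plants raise subunit transcripts together through the transcription factors NAC53 and NAC78, which bind a short element with the core TGGGC.

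Total gene counts, in units of 1e6 reads, ranged per library from 18.2 to 25.8 for wild type and from 14.1 to 26 for ppsdes, and the lowest count of any member in any library was 136 reads. Levels are given as CPM, counts per 1e6 gene counts of a library, scaled over all 60 libraries by the trimmed mean of M values. For 7 of the 60 libraries the expression over all genes lay nearer the mean of another time of the same line, among them replicate 1 of the wild-type MLACC line at 4 h and its replicate 3 at 8 h. The 4 mesophyll markers were detected in every group, but their summed level at 8 h was 8671 to 21401 CPM in the wild-type MLACC line against 45937 to 53131 CPM in the mYFP line, and that of the 3 epidermis markers was 9.95 to 90.9 CPM against 248.5 to 285.5 CPM. In ppsdes at 8 h the mesophyll sum was 42344 to 56955 CPM in the MLACC line and 57765 to 71070 CPM in the control, and the epidermis sum 124.9 to 175.8 CPM and 231.4 to 279.4 CPM. The 3 guard cell markers summed to 60.9 to 65.8 CPM against 51.7 to 58.5 CPM in wild type and to 26.7 to 38.8 CPM against 69.8 to 77.5 CPM in ppsdes. The higher sum in wild type came from KAT1 (log2 fold change 1.08), while FAMA (-0.61) and MYB60 (-1.62) were lower, and all 3 were lower in ppsdes. The 4 vasculature markers summed to 519.9 to 568.7 CPM against 604.1 to 654.5 CPM in wild type, without overlap, and to 478.7 to 520.2 CPM against 430.1 to 508.6 CPM in ppsdes, and none of them passed the test on its own. The lower sum in wild type came mostly from SWEET11, at a mean of 125 CPM against 231 CPM in the mYFP line. SWEET12 was at 98.3 against 105 CPM, while SUC2 (303 against 275 CPM) and APL (21.0 against 17.2 CPM) were higher. At 4 h in wild type the mesophyll sum was 24335 to 33138 CPM in the MLACC line against 50123 to 53557 CPM in the mYFP line. The epidermis sum was then 39.9 to 118 CPM against 164 to 235 CPM. In ppsdes at 4 h these sums were 52232 to 52939 against 58466 to 59810 CPM and 180 to 190 against 235 to 380 CPM. The part of these shifts in the results below was not tested, and in bulk leaf tissue fewer cells of a type and less RNA per cell cannot be told apart.

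Before induction the subunit genes did not separate the lines. At 0 h no member passed the test between the MLACC line and its control in either background (edgeR quasi-likelihood test, Benjamini-Hochberg adjusted p below 0.01 over all genes tested; 0 members at an unadjusted p under 0.05), and the median log2 fold change over the members was 0.00 in wild type and -0.01 in ppsdes. The ppsdes control and the mYFP line likewise differed in no member at 0 h, with log2 differences from -0.28 (RPN5b) to 0.40 (RPT5b) and 0 members at an unadjusted p under 0.05; background, transgene and sequencing table cannot be told apart in that comparison. Per kilobase of exon the resting levels in the mYFP line ran from 6.00 CPM per kb (RPN8b) over a median of 32.3 to 69.6 CPM per kb (PBF1), an 11.6-fold range among subunits. In both MLACC lines at 0 h the same genes stood at the ends, with RPN8b lowest at 5.95 and 5.90 CPM per kb and PBF1 highest at 72.1 and 70.7 CPM per kb. In the ppsdes control at 0 h PBF1 was highest as well (72.2 CPM per kb), but RPN5b was lowest (5.79 CPM per kb). In the wild-type MLACC line at 8 h the range was 22.5 (RPN5b) to 298 (RPT1a) CPM per kb around a median of 122 CPM per kb.

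In the control lines the members' median log2 difference from 0 h was above 0 at every later time. Handling, dexamethasone and time of day cannot be told apart in this course. Dexamethasone also induced the fluorescent protein in the mYFP line, while the ppsdes control carried no transgene. In the mYFP line the members' median log2 difference from 0 h was 0.28, 0.38, 0.40 and 0.32 at 2, 4, 6 and 8 h, against 0.02 to 0.08 over all genes tested. Members higher than at 0 h at an adjusted p below 0.01 numbered 2, 12, 10 and 8 of 37, where the background over all genes was 12.6%, 14.2%, 18.6% and 20.4%. The share of members called thus lay below the background at 2 h and near it at 8 h. In the ppsdes control the medians were 0.29, 0.27, 0.38 and 0.26 with 8, 13, 20 and 9 members called, against a background of 15.0%, 15.3%, 18.2% and 19.6%. No member was called lower at any time in either control. Without replicate 1 of the mYFP line at 0 h the 12 members at 4 h became 4, and without replicate 2 of the ppsdes control at 0 h the 20 members at 6 h became 10.

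RPT2a (AT4G29040), an ATPase subunit, rose most in both controls by 8 h. In the mYFP line it went from 44.7, 51.1 and 49.4 CPM at 0 h to 113, 108 and 104 CPM at 8 h, a log2 change of 1.22 ± 0.17 (SE; adjusted p = 3.0e-06). In the ppsdes control it went from 43.7, 45.1 and 47.9 CPM to 111, 108 and 115 CPM (1.3 ± 0.13; adjusted p = 1.26e-08). No library at 8 h overlapped with those at 0 h in either control. RPN8a (AT5G05780), a subunit of the lid of the regulatory particle, stood lowest, at -0.29 ± 0.15 in the mYFP line (adjusted p = 0.12) and -0.40 ± 0.12 in the ppsdes control (adjusted p = 0.011), neither past the threshold of 0.01.

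In wild type, most subunit genes were higher in the MLACC line than in the mYFP line from 4 h on, but not at 2 h. The paper detected cell death on MLACC expression from 4 h after induction, and its part in this rise was not tested. At 2 h no member passed the test, against a background of 5.51% of genes higher (4.14% with a change of more than 1 on the log2 scale as well), and 1 member had an unadjusted p under 0.05. At 4 h 34 of the 37 were higher than in the mYFP line (background 32.1%) and 19 of them also by more than 1 on the log2 scale (background 21.4%). At 6 h these counts were 36 (background 28.5%) and 26 (background 18.8%), and at 8 h all 37 were higher (background 34.2%), 32 with the fold threshold (background 23.1%). No member was lower at any time. The median log2 fold change over the members was 0.05, 1.01, 1.19 and 1.69 at 2, 4, 6 and 8 h, while that of all genes tested stayed between -0.02 and 0.02. The 3 members not called at 4 h were PAA1 (0.34), RPT6a (0.23) and RPN2a (0.37). Without replicate 1 of the MLACC line at 4 h, the count with the fold threshold was 29 in place of 19.

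**Figure D1:**
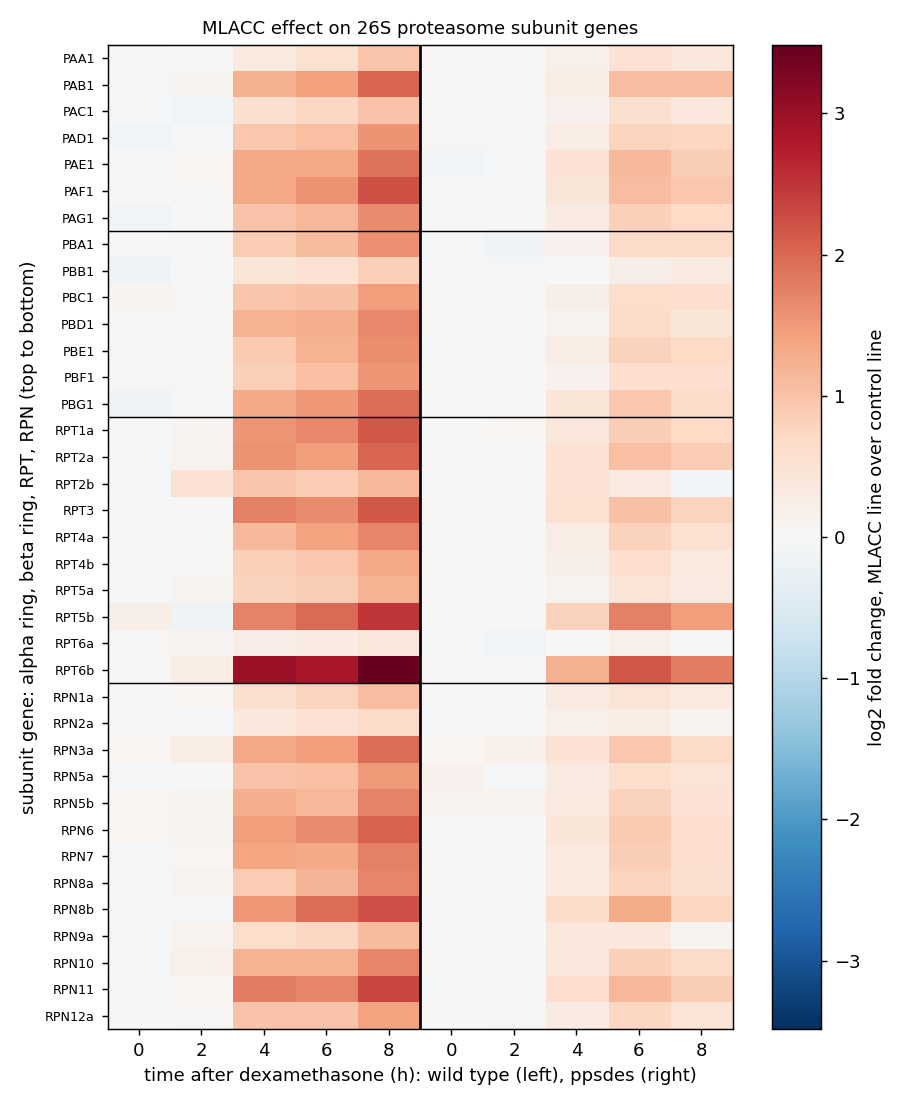
Log2 fold change of the MLACC line over its control for each of the 37 subunit genes (rows, grouped by ring or particle) at 0, 2, 4, 6 and 8 h after dexamethasone in wild type (left 5 columns) and ppsdes (right 5 columns). Colour stays near 0 at 0 and 2 h; in wild type the members' median reaches 1.69 at 8 h, and in ppsdes it is highest at 6 h with 0.79.

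The summed share of the members in the gene counts showed the same course in single libraries. It was 0.178 to 0.200% in the MLACC line at 0 h and 0.226 to 0.252% at 2 h, where the mYFP line held 0.243 to 0.266%. At 4 h the MLACC line reached 0.446, 0.572 and 0.671%, and at 8 h 0.714, 0.955 and 0.752%, while the mYFP line held 0.242, 0.253 and 0.250% at 8 h. The 3 MLACC libraries at 4 h spread more than those of any control group, and all lay above the mYFP libraries of that time (0.280 to 0.310%).

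**Figure D2:**
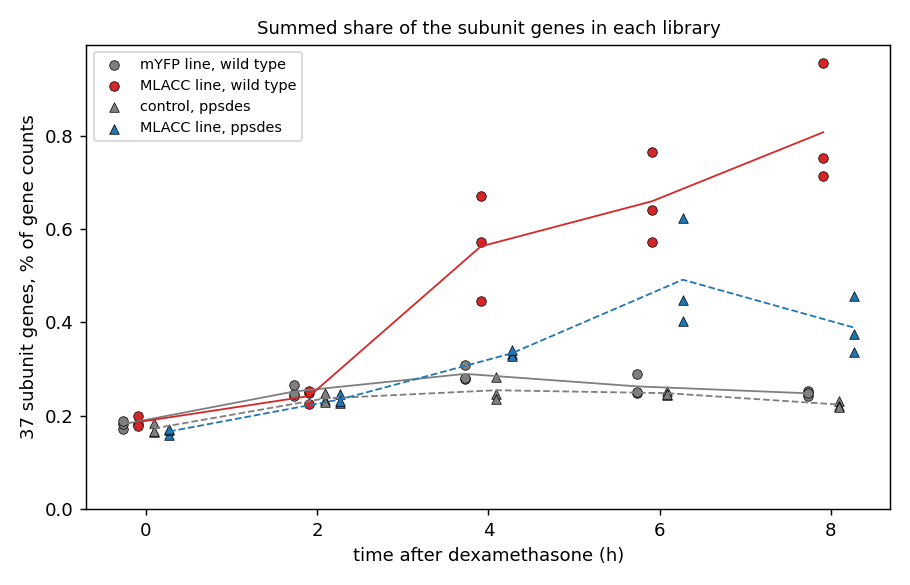
Share of all gene counts (in %) taken by the 37 subunit genes in each library against the time after dexamethasone (h); points are libraries, lines join group means, circles are wild type and triangles ppsdes. The wild-type MLACC line reached 0.714 to 0.955% at 8 h, the ppsdes MLACC line 0.336 to 0.457%, and the controls 0.220 to 0.253%.

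Among core particle genes in wild type, all 14 were higher at 8 h, with log2 fold changes from 0.82 to 2.23 and medians of 1.65 in the alpha ring and 1.60 in the beta ring. PBA1 (AT4G31300) was at 74.9, 73.8 and 71.6 CPM in the mYFP line and at 190, 269 and 202 CPM in the MLACC line, a log2 fold change of 1.60 ± 0.16 (SE; adjusted p = 1.57e-08). PBE1 (AT1G13060) was at 73.3, 71.0 and 70.1 CPM in the mYFP line and at 189, 270 and 198 CPM in the MLACC line (1.63 ± 0.17, adjusted p = 2.69e-08). PBB1 (AT3G27430), the third catalytic subunit, had the smallest change of the core particle: 70.3, 68.8 and 70.4 CPM against 108, 145 and 113 CPM (0.82 ± 0.13; adjusted p = 7.14e-06). For all 3 catalytic subunits the MLACC libraries lay above every mYFP library, and replicate 2 was the highest of the MLACC libraries. The second genes for the same subunits, PBB2 at 2.29 ± 0.20 and PBE2 at 2.47 ± 0.21, were higher as well, although PBE2 stood at only 14.9 ± 1.06 CPM (SD, n = 3) in the mYFP line at 8 h. In the alpha ring the values ran from PAA1 at 0.96 and PAC1 at 0.99 to PAB1 at 2.03 and PAF1 at 2.23.

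The widest range was found in the regulatory particle. RPT6b (AT5G20000), one of a pair of genes for the same ATPase, was at 28.7, 31.4 and 29.6 CPM in the mYFP line at 8 h and at 253, 437 and 306 CPM in the MLACC line, an 11.2-fold rise (log2 3.49 ± 0.25 SE; adjusted p = 4.51e-10). It had reached 3.01 ± 0.25 by 4 h. RPT5b (AT1G09100), also an ATPase gene, rose by 2.48 ± 0.25 (19.8, 20.7 and 18.6 CPM against 88.2, 143 and 95.8 CPM; adjusted p = 2.12e-08). RPN11 (AT5G23540), the deubiquitinase of the lid, rose by 2.33 ± 0.19 (63.3, 64.8 and 61.7 CPM against 255, 403 and 287 CPM; adjusted p = 1.74e-09). The MLACC and mYFP libraries did not overlap for any of these genes. At the other end, RPT6a (AT5G19990) was at 61.8, 55.3 and 60.4 CPM against 74.0, 85.2 and 72.9 CPM, a change of 0.40 ± 0.10 (adjusted p = 0.00074), and RPN2a (AT2G32730), a scaffold subunit of the base, at 112, 110 and 118 CPM against 159, 203 and 169 CPM, a change of 0.66 ± 0.13 (adjusted p = 9.02e-05). With only the 6 libraries at 8 h in the fit, neither RPT6a (adjusted p = 0.036) nor RPN2a (adjusted p = 0.010) passed the threshold of 0.01.

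In ppsdes most of the subunit genes were higher in the MLACC line than in the control at 6 and 8 h. At 2 h no member passed the test (background 0.463% of genes higher, 0.380% with the fold threshold; 0 members at an unadjusted p under 0.05). At 4 h 5 of 37 were higher (background 2.81%), namely RPT6b, RPN11, RPT3, RPT2b and RPN9a, and 1 of them, RPT6b, with the fold threshold (background 2.08%). At 6 h 33 were higher (background 16.6%), 9 with the fold threshold (background 10.5%). At 8 h 31 were higher (background 13.2%) and 3 with the fold threshold (background 9.00%). The median log2 fold change was -0.01, 0.32, 0.79 and 0.58 at 2, 4, 6 and 8 h. No member was called lower. The 5 calls at 4 h did not withstand the loss of a library: leaving out any 1 of the 6 libraries of that time left 0 or 1. Without replicate 2 of the MLACC line the 9 members past both thresholds at 6 h became 2, and the 31 members at 8 h became 19.

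All 14 core particle genes passed the test in ppsdes at 8 h, with log2 fold changes of 0.31 to 1.08, and PAB1 (AT1G16470, alpha ring) was the highest of them at 52.9, 52.1 and 52.6 CPM in the control against 105, 139 and 96.0 CPM in the MLACC line (1.08 ± 0.12 SE; adjusted p = 1.65e-06). PBA1 stood at 0.66 ± 0.11, PBE1 at 0.69 ± 0.12 and PBB1 at 0.31 ± 0.08, so that PBB1 was again the smallest of the catalytic subunits. Of the 23 regulatory particle genes 17 passed. RPT6b was again highest (22.3, 22.0 and 26.6 CPM against 69.9, 110 and 67.6 CPM; 1.77 ± 0.22; adjusted p = 5.67e-06), followed by RPT5b at 1.45 ± 0.21 (17.0, 16.5 and 20.3 CPM against 41.4, 69.6 and 38.9 CPM). The 6 members that did not pass at 8 h were RPT2b (-0.08 ± 0.11), RPT6a (0.03 ± 0.07), RPN9a (0.09 ± 0.09), RPN2a (0.10 ± 0.10), RPT5a (0.32 ± 0.10) and RPN5b (0.50 ± 0.17). RPT2b (AT2G20140), the only member with a negative value at 8 h in either background, was at 51.7, 44.6 and 50.7 CPM in the control and 46.0, 48.6 and 47.3 CPM in the MLACC line, and these groups overlapped; with total gene counts as the only scaling its value was above 0. RPN9a (AT5G45620), a lid subunit, was at 29.9, 30.2 and 27.0 CPM against 30.7, 33.7 and 30.3 CPM. RPT2b and RPN9a had both passed the test at 4 h, at 0.51 ± 0.11 and 0.39 ± 0.09.

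The difference of the MLACC effect between the backgrounds was tested itself, in a fit of all 60 libraries. The paper, which names this mutant deppss, reports a lower level of MLACC protein in it than in wild type. The part of that lower protein level in the differences below was not tested. At 4 h the effect was smaller in ppsdes for 25 of 37 members (background 15.1% of genes), 6 with the fold threshold (background 10.6%), and the median difference was -0.71 on the log2 scale. At 6 h only RPT1a passed (-0.83 ± 0.20; background 3.53%, and 2.61% with the fold threshold, which no member met), with a median of -0.41 and 23 members at an unadjusted p under 0.05. At 8 h 35 members passed (background 14.2%), 16 with the fold threshold (background 8.61%), with a median of -0.97. At none of these times was a member called higher in ppsdes, and all 37 differences were negative at 4, 6 and 8 h. The count at 4 h leaned on a single library: without replicate 3 of the wild-type MLACC line it was 8 in place of 25, and 1 in place of 6 with the fold threshold. Without replicate 2 of the wild-type MLACC line at 8 h, the count with the fold threshold was 7 in place of 16, while leaving out any 1 library of that time left 26 to 36 members past the test without a fold threshold.

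The largest differences at 8 h were those of RPT6b (-1.67 ± 0.32 SE; adjusted p = 8.75e-05), RPN8b (-1.44 ± 0.31; adjusted p = 0.00029) and RPT1a (-1.44 ± 0.21; adjusted p = 1.01e-06). RPT1a (AT1G53750), an ATPase gene, was at 132, 138 and 128 CPM in the mYFP line and 483, 759 and 532 CPM in the wild-type MLACC line, but at 125, 112 and 120 CPM in the ppsdes control and 187, 227 and 173 CPM in the ppsdes MLACC line. RPN8b (AT3G11270) was at 9.70, 9.74 and 12.5 CPM against 39.4, 61.2 and 48.0 CPM in wild type and at 13.1, 9.17 and 10.5 CPM against 15.1, 24.8 and 16.4 CPM in ppsdes. For both genes the MLACC libraries lay above their controls in both backgrounds. RPT5b (-0.99 ± 0.31; adjusted p = 0.0101) and RPT6a (-0.33 ± 0.11; adjusted p = 0.011) were the 2 members that did not pass at 8 h. The order of the members was alike in the backgrounds, which share no libraries: across the 37 genes, which are not independent replicates, the log2 fold changes at 8 h correlated with Pearson's r = 0.89 and Spearman's rho = 0.85, and those of wild type at 8 h with those of ppsdes at 6 h with r = 0.94 and rho = 0.96. The median ratio of the ppsdes to the wild-type log2 fold change was 0.30 at 4 h, 0.64 at 6 h and 0.35 at 8 h.

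**Figure D3:**
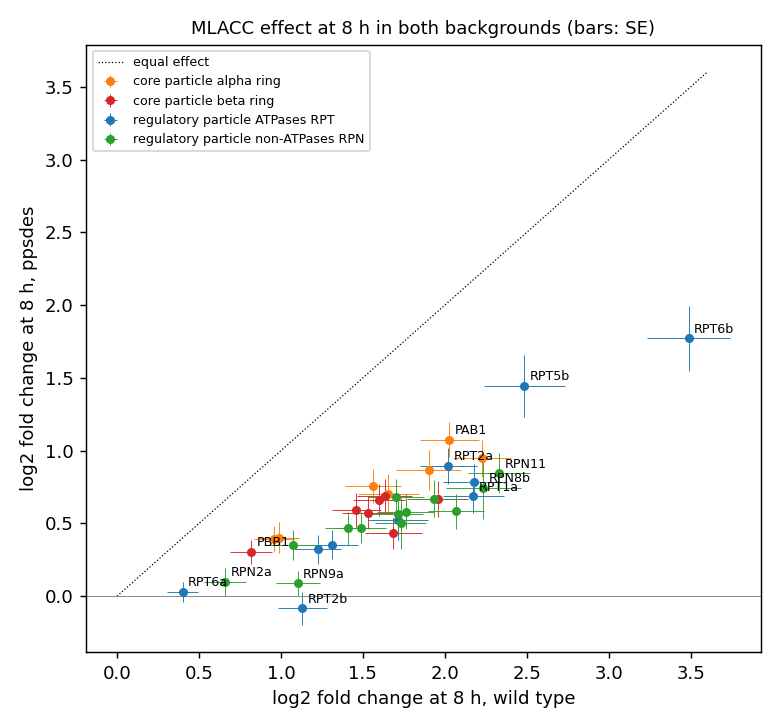
Log2 fold change at 8 h in ppsdes (y axis) against that in wild type (x axis) for the 37 subunit genes, coloured by ring or particle, with standard errors; the dotted line marks equal effects. Every gene lies below the line, RPT6b is highest in both (3.49 and 1.77), and RPT2b is the only gene below 0 in ppsdes (-0.08, above 0 with total gene counts as the only scaling).

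Both copies of a subunit did not always move alike. For 6 subunits with both genes among the members, the log2 ratio of copy a to copy b was compared between the MLACC line and its control over 2 to 8 h (two-sided exact permutation test within times, 160000 arrangements, adjusted over 12 tests, threshold 0.05). The ratio RPT6a to RPT6b moved most, by -2.09 in wild type (adjusted p = 3e-04) and -1.21 in ppsdes (adjusted p = 0.00053). At 0 h RPT6a stood 3.69-fold above RPT6b in the mYFP line and 3.67-fold above it in the MLACC line, whereas at 8 h RPT6b stood 4.17-fold above RPT6a in the MLACC line (mean log2 ratio -2.06 ± 0.29, SD, n = 3) and RPT6a still 1.96-fold above RPT6b in the mYFP line. In ppsdes at 8 h RPT6b was 1.25-fold above RPT6a in the MLACC line. The coding sequences of this pair are 94.37% identical and 11.97% of the 50-base stretches of RPT6a occur unchanged in RPT6b; how the counting treated reads that match both copies was not tested, and the size of the RPT6 shift is uncertain to that extent.

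RPT5a to RPT5b moved the same way, by -0.74 in wild type (adjusted p = 0.00126) and -0.74 in ppsdes (adjusted p = 0.00053). RPT5a (AT3G05530) was at 88.4, 88.0 and 93.5 CPM in the mYFP line and 189, 250 and 184 CPM in the MLACC line at 8 h, and at 78.8, 96.9 and 86.1 CPM against 114, 117 and 103 CPM in ppsdes, so that its lead over RPT5b went from 8.80-fold at 0 h to 1.93-fold at 8 h in the wild-type MLACC line. In the mYFP line the lead also shrank, from 10-fold to 4.48-fold. At 2 h in wild type the mean log2 ratios of RPT5 and RPN8 were higher in the MLACC line (3.63 and 2.80) than in the mYFP line (3.42 and 2.64), against the direction of the mean shift. RPN8a to RPN8b moved by -0.40 in wild type (adjusted p = 0.0020) and -0.22 in ppsdes (adjusted p = 0.012). RPN8a itself was at 45.4, 47.2 and 52.4 CPM against 133, 198 and 138 CPM at 8 h in wild type, and at 46.5, 41.4 and 47.3 CPM against 64.3, 76.4 and 63.2 CPM in ppsdes.

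For RPT2 the direction depended on the time. Over 2 to 8 h the ratio RPT2a to RPT2b moved by 0.43 in wild type (adjusted p = 0.0043) and 0.39 in ppsdes (adjusted p = 0.0054), but these means join opposite values. At 2 h in wild type the log2 ratio was lower in the MLACC line (0.93 ± 0.023, SD, n = 3) than in the mYFP line (1.29 ± 0.032), and RPT2b was the member with an unadjusted p under 0.05 at that time (log2 fold change 0.49 ± 0.15, SE; adjusted p = 0.030). In ppsdes the mean log2 ratios of the MLACC line and the control were 1.14 and 1.2 at 2 h and 1.56 and 1.56 at 4 h. Over 4 to 8 h alone the shift was 0.69 in wild type and 0.55 in ppsdes. RPT2a was at 113, 108 and 104 CPM in the mYFP line and 395, 541 and 369 CPM in the MLACC line at 8 h (2.02 ± 0.17 SE), and RPT2b at 41.8, 39.5 and 46.5 CPM against 77.8, 112 and 87.8 CPM (1.13 ± 0.15). In ppsdes at 8 h RPT2a was at 111, 108 and 115 CPM in the control and 205, 249 and 183 CPM in the MLACC line (0.90 ± 0.12), while RPT2b did not pass the test. The remaining pairs moved little. RPT4a to RPT4b shifted by 0.28 in wild type (adjusted p = 0.00053) and 0.10 in ppsdes (adjusted p = 0.049). RPN5a to RPN5b shifted by -0.16 in wild type (adjusted p = 0.0019), and by -0.10 in ppsdes, which did not pass (adjusted p = 0.23). At 8 h in wild type RPT4a (AT5G43010) was at 36.5, 34.1 and 37.4 CPM against 92.1, 146 and 112 CPM and RPT4b (AT1G45000) at 75.7, 78.2 and 82.7 CPM against 164, 234 and 183 CPM. RPN5a (AT5G09900) was at 72.1, 73.1 and 75.8 CPM against 183, 244 and 186 CPM and RPN5b (AT5G64760) at 11.5, 12.7 and 13.2 CPM against 36.7, 49.3 and 36.9 CPM. In ppsdes at 8 h RPT4a was at 36.0, 37.4 and 35.7 CPM against 51.2, 61.4 and 47.4 CPM, and RPT4b at 86.7, 82.3 and 81.0 CPM against 102, 125 and 99.7 CPM. There RPN5a was at 78.7, 74.1 and 73.5 CPM against 99.2, 121 and 101 CPM, and RPN5b at 13.0, 9.07 and 13.0 CPM against 15.1, 19.7 and 15.9 CPM.

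**Figure D4:**
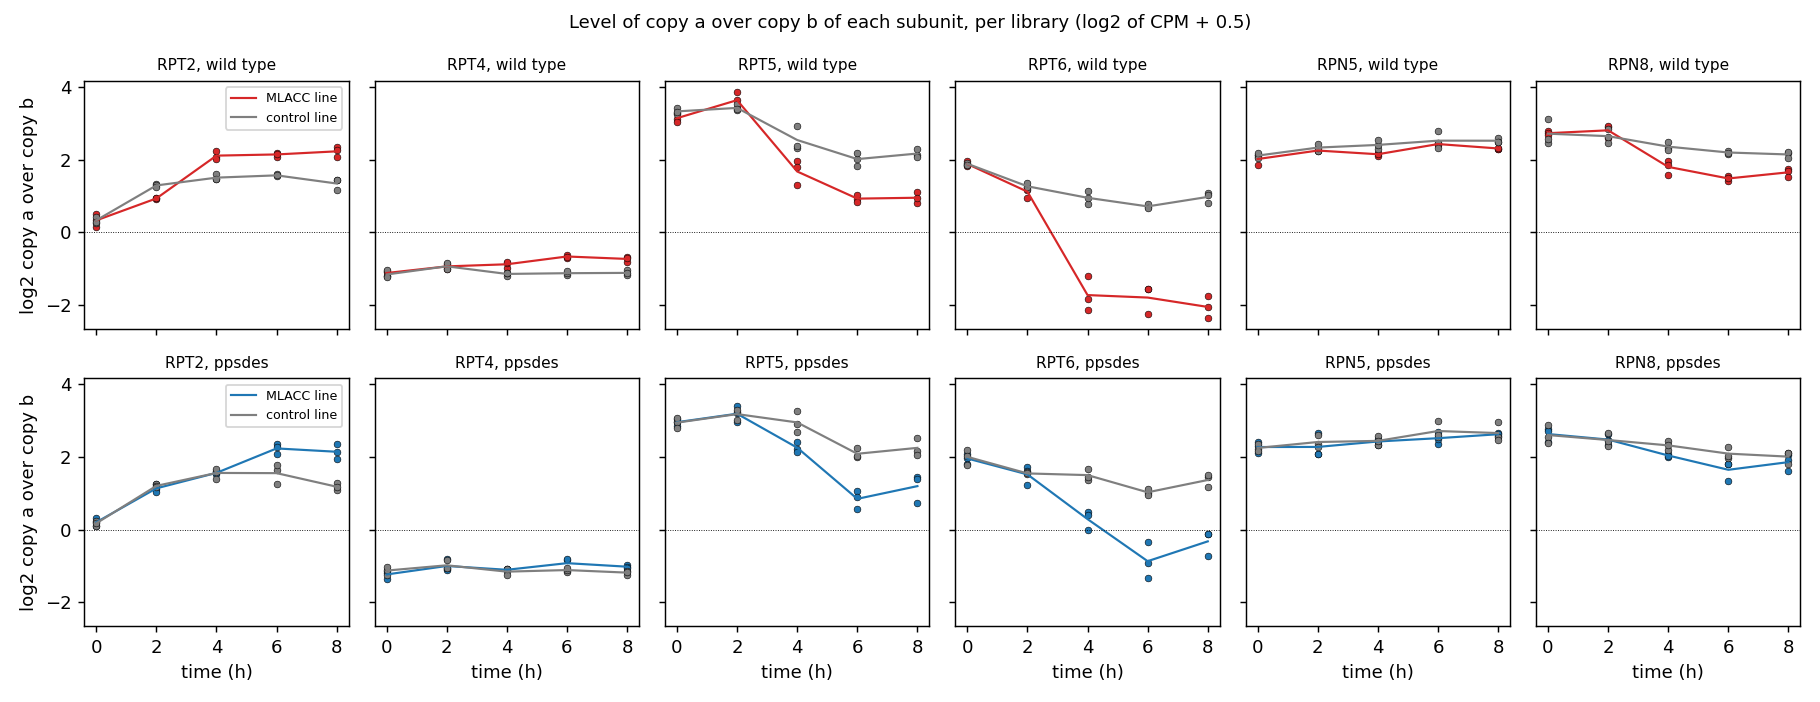
Log2 ratio of copy a to copy b (CPM + 0.5) for 6 subunit pairs against time (h) in wild type (top) and ppsdes (bottom); points are libraries and lines group means, coloured for the MLACC line and grey for the control. The RPT6 ratio falls from 1.88 at 0 h to -2.06 at 8 h in the wild-type MLACC line, and to 0.97 in the mYFP line.

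The stretch of 250 bases upstream of each gene start was searched for the core of the NAC53 and NAC78 element, TGGGC or its reverse complement GCCCA, in the RefSeq annotation of TAIR10.1. It was found upstream of 17 of 37 members (45.95%), against 22.71% of 27443 protein-coding genes. By group it was upstream of 3 of 7 alpha ring, 5 of 7 beta ring, 3 of 10 RPT and 6 of 13 RPN genes. The share was not particular to the members. Of the related lists described below, TGGGC was upstream of 60% of second copies of subunit genes and 54.55% of assembly factors and partners. It was upstream of 42.86% of the ubiquitin, shuttle factor and CDC48 list, 20% of COP9 signalosome genes, and neither NAC53 nor NAC78. The longer form TGGGCC, which contains the first and was also read on both strands, was upstream of 13 members (35.14%) and of 13.65% of all genes. Upstream stretches are shown for RPT2 and RPT6 only, although the copies of other pairs differed in response as well. Capitals mark TGGGC or GCCCA. They lie at chr4:14312033-14312282 (RPT2a), chr2:8692317-8692566 (RPT2b), chr5:6751548-6751797 (RPT6a) and chr5:6756383-6756632 (RPT6b), all on the plus strand and each ending at the base before the annotated gene start.
RPT2a: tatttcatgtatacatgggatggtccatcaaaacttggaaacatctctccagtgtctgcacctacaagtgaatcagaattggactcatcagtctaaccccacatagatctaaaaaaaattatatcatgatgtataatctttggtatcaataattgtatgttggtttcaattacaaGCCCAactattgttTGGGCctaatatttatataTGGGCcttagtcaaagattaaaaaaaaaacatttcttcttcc
RPT2b: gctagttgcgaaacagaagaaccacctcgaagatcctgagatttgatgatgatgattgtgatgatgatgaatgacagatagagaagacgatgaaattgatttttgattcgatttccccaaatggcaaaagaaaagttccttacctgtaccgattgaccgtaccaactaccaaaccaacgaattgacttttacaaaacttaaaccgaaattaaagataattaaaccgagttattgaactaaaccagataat
RPT6a: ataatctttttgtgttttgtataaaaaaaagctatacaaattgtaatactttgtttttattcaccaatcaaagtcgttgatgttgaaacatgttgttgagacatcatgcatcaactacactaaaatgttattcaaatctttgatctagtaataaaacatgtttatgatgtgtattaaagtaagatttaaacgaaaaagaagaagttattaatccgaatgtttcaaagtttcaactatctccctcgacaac
RPT6b: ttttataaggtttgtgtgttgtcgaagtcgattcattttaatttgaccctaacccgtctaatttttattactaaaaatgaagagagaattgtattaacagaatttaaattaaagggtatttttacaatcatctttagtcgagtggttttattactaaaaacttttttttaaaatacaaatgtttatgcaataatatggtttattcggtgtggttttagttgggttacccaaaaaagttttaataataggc

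RPT2a held 3 matches and RPT2b none. RPN5b held 2 matches and RPN5a none, and the ratio of that pair shifted by -0.16 in wild type. In ppsdes it shifted by -0.10, which did not pass. RPN8a held 4 matches and RPN8b 2. Neither copy of RPT6, neither copy of RPT5 and not RPN11 held a match. RPT6b, RPT5b and RPN11 had the highest log2 fold changes in wild type at 8 h. Over the 17 members with a match the median log2 fold change at 8 h in wild type was 1.73, and over the 20 without it was 1.56; in ppsdes these medians were 0.66 and 0.55. A match of these letters is a description of the sequence and says nothing of binding. The part of the element in these responses was not tested.

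Other genes of the pathway were counted the same way at 8 h. Of the 15 second copies of subunit genes, 13 were higher in wild type (background 34.2%) and 10 in ppsdes (background 13.2%), with medians of 1.65 and 0.62 on the log2 scale. PBE2, PBB2 and RPN9b were the highest of those called in wild type (2.47, 2.29 and 2.05), and PAE2 (1.32) and RPN1b (0.65) the lowest. RPT1b and RPN12b, not called in wild type, had lower means in the MLACC lines. RPT1b was at 37.2 against 43.2 CPM in wild type and 33.6 against 42.3 CPM in ppsdes. RPN12b, near the floor, was at 0.25 against 0.72 CPM and 0.43 against 1.28 CPM. Of 11 assembly factors and partners 10 were tested, and all 10 were higher in wild type and 4 in ppsdes, against the same background. PA200, an alternative activator of the core particle, was at 83.7 ± 14.2 CPM (SD, n = 3) in the mYFP line and 660 ± 155 CPM in the MLACC line (log2 3.0 ± 0.26 SE), ahead of the chaperone HSM3 (2.22) and the core assembly factor UMP1a (1.54), while PTRE1 (0.85) and NAS2 (0.62) were lowest. NAC53 (AT3G10500) was at 16.8 ± 4.19 CPM in the mYFP line and 145 ± 34.9 CPM in the wild-type MLACC line (3.13 ± 0.31 SE, adjusted p = 2.19e-08). In ppsdes it was at 5.11 ± 0.59 CPM in the control and 38.7 ± 14.2 CPM in the MLACC line (2.89 ± 0.35, adjusted p = 3.12e-06). The difference between the backgrounds did not pass (-0.19 ± 0.44, adjusted p = 0.76). NAC78 (AT5G04410) was at 49.8 ± 3.13 CPM in the mYFP line and 153 ± 30.3 CPM in the wild-type MLACC line (1.63 ± 0.15 SE, adjusted p = 5.09e-09). Its effect was smaller in ppsdes by -1.11 ± 0.20 (adjusted p = 5.36e-05), where it did not pass on its own (0.47 ± 0.15, adjusted p = 0.018).

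Genes that bring substrates to the proteasome moved in both directions. Of 21 genes for ubiquitin, its activating enzymes, shuttle factors, deubiquitinases and CDC48, 15 were higher and 2 lower in wild type at 8 h, where the background was 34.2% higher and 30.5% lower. In ppsdes 7 were higher and 1 lower, where it was 13.2% and 10.8%. CDC48B, a segregase, was at 4.48 ± 0.21 CPM (SD, n = 3) in the mYFP line and 197 ± 74.6 CPM in the MLACC line (log2 5.48 ± 0.44 SE), followed by DDI1 (2.20) and the polyubiquitin gene UBQ11 (1.92). The ubiquitin shuttle factor RAD23C was lower in the MLACC line (-1.33 ± 0.18). Of 10 genes of the COP9 signalosome, a complex related to the proteasome lid that regulates ubiquitin ligases, 7 were higher in wild type (background 34.2%), led by CSN8 (1.23), CSN7 (1.14) and CSN4 (1.12) with CSN5A (0.77) and CSN3 (0.64) lowest among those called, and 0 passed in ppsdes (background 13.2%; 3 at an unadjusted p under 0.05). Its median was 0.82 in wild type and 0.01 in ppsdes, against 1.69 and 0.58 over the 37 proteasome members and 0.02 and -0.07 over all genes tested.

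**Figure D5:**
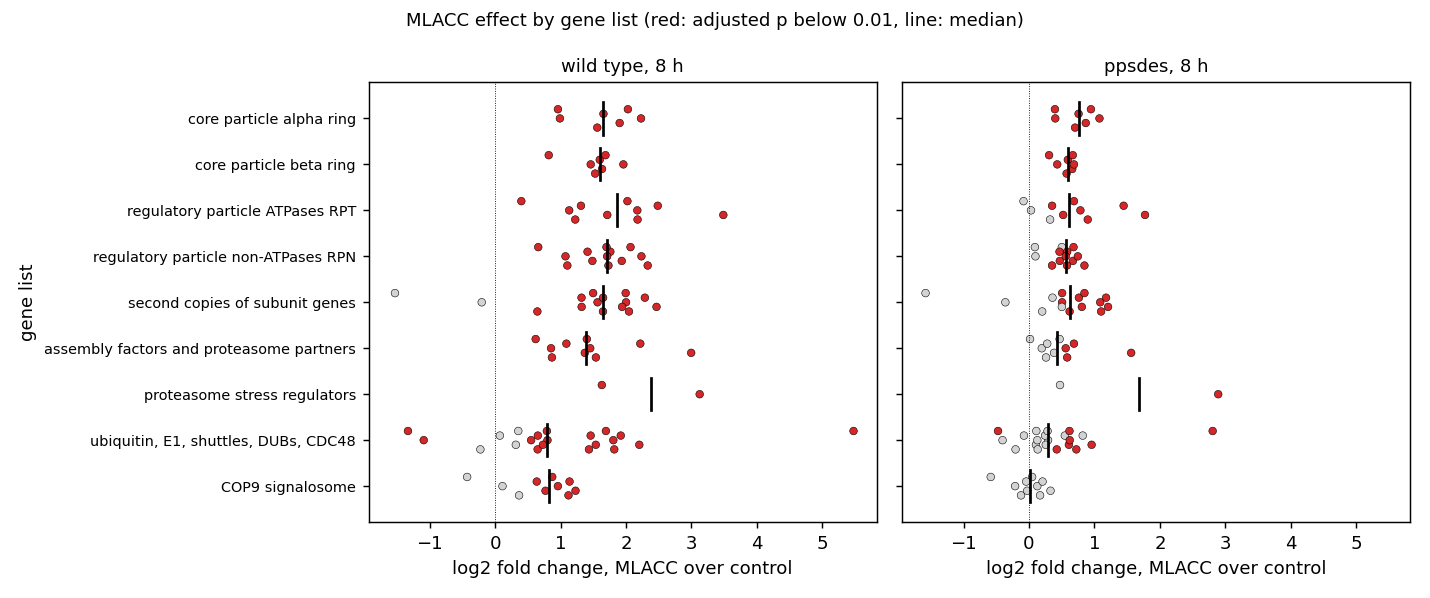
Log2 fold change at 8 h of the MLACC line over its control for each gene (points) of the 4 groups of subunit genes and 5 related gene lists (rows), in wild type (left) and ppsdes (right); red points have an adjusted p below 0.01 and black lines are medians. The subunit groups have medians of 1.60 to 1.87 in wild type, and the COP9 signalosome 0.82.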

How the data were processed

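The deposited tables hold raw read counts per gene. Per the labels the authors made them from polyA RNA (TruSeq RNA v2, which does not mark strand) with FastQC 0.11.2, TopHat2 2.0.10, HTSeq and the TAIR10 build. The counter's summary lines (8.40 to 16.8% of a column) were left out. Members and gene lists were chosen with earlier results of these data known. Counts were filtered (filterByExpr), scaled by TMM and tested with the edgeR 4.0.16 quasi-likelihood test in R 4.3.3, in 1 fit per background (19654 and 19216 genes tested) and 1 fit of all 60 libraries for the difference (19929 genes), with Benjamini-Hochberg adjustment over all genes, an adjusted p below 0.01, and a fold threshold of 1 on the log2 scale where named. The study's own test model was not used here. Described with values were the catalytic subunits, the 3 members with the highest and the 3 with the lowest log2 fold change at 8 h in each background, the 3 with the largest difference, any below 0 at 8 h, both copies of each pair, the highest and lowest member of each control course, and of each related list at most the 3 highest and 2 lowest called genes in wild type, with NAC53 and NAC78 always. The other members are given by counts and ranges, or named where they limit a count. The ratio of paired copies was tested by exact permutation at an adjusted p below 0.05. SEs are those of the fitted log2 fold changes. Where replicates came from separate experiments is not stated in the labels, so p-values measure the spread between these samples. No replicates agreed within sampling noise. The code was tested on simulated data. Alternatives were DESeq2 1.42.0, other scalings, no filter, other fits, a replicate block and leaving out libraries. A gene and an upstream sequence are not reported here.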

Additional observations from a re-analysis of the deposited data

Results flagged for a closer look

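The MLACC effect differed between the backgrounds, by the test of the difference itself in edgeR's quasi-likelihood fit, for 25 of 37 subunit genes at 4 h (background 15.1% of all genes) and 35 at 8 h (background 14.2%), with the smaller effect in ppsdes. The 25 became 8 without replicate 3 of the wild-type MLACC line. At 6 h the count was 1, a share below the background of 3.53%. Of single genes at 8 h, RPT6b (-1.67), RPN8b (-1.44) and RPT1a (-1.44) had the largest log2 differences. The lower MLACC protein level that the paper reports in this mutant was not taken into account.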

How the results depend on the processing

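No called result changed direction. With total gene counts as the only scaling, the median of all genes moved to -0.15 (wild type 4 h), 0.18 (ppsdes 6 h) and 0.13 (ppsdes 8 h). The mYFP course then had medians of 0.46, 0.63, 0.52 and 0.41 and 19, 31, 21 and 17 members called at 2 to 8 h, and the ppsdes control medians of 0.46, 0.44 and 0.47 at 2 to 6 h with 18 members at 2 h. The MLACC effect had a median of -0.063 in wild type at 2 h and 0.78 in ppsdes at 8 h, with 18 (6 h) and 7 (8 h) ppsdes members past both thresholds. The difference held 11 members at 4 h (1 with the fold threshold) and 0 at 6 h. DESeq2 and its size factors in edgeR each gave a mYFP median of 0.26 at 8 h and 2 members for the 6 h difference, and DESeq2 8 members in ppsdes at 4 h. No filter gave 0.27 for that mYFP median and 2 members in ppsdes at 4 h, as did 1 fit of all libraries (2 members). Without the 7 libraries nearest another time, that median was 0.26, the difference held 16 members past both thresholds at 4 h and 0 at 6 h, and ppsdes 2 at 4 h and 15 past both at 6 h. With only the 6 libraries compared, 0 members passed in ppsdes at 4 h (0 with the fold threshold), 15 at 6 h, and 21 in wild type at 4 h. With the 0 h difference subtracted, ppsdes had 0 at 4 h (0 with the fold threshold) and 14 at 8 h. A pseudocount of 2 gave an RPT4 shift of 0.089 in ppsdes (adjusted p = 0.058, threshold 0.05). The cause of these changes was not tested.

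Same-numbered libraries of the MLACC line and its control had deviations correlated over 0.1 in 20 of 30 pairs of libraries (range -0.18 to 0.54). Pairing required every pair to exceed 0.1, and no label names a shared batch, so the numbers were not used as pairs. With the replicate number as a block, 4 members in place of 2 were called in the mYFP line at 2 h and the resting median was 0.074.

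Leaving out 1 library at a time gave 5 to 6, 8 to 13 and 10 to 15 members for the ppsdes control at 2, 4 and 6 h, and 4 to 10 for the mYFP line at 4 h, whose medians were 0.31 to 0.41 at 6 h and 0.26 to 0.35 at 8 h. The difference held 8 to 30 members at 4 h (1 to 11 with the fold threshold), 0 to 4 at 6 h, and 7 to 20 with the fold threshold at 8 h. In ppsdes 0 to 1 passed at 4 h (0 to 1 with the fold threshold), 2 to 12 past both thresholds at 6 h, and 19 to 31 at 8 h. In wild type 16 to 29 were past both thresholds at 4 h, and the 8 h median was 1.44 to 1.73. The ppsdes shifts were -0.28 to -0.12 (RPN8) and 0.063 to 0.13 (RPT4), and missed the threshold of 0.05 in 2 and 4 of 6 cases.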
